A study of Mus musculus with 2 samples.

Results

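The small leucine-rich proteoglycans (SLRPs) were examined in single-cell RNA-sequencing (scRNA-seq) data from adult mouse muscle through 10 listed genes of the 32285 in the matrices. The list was Dcn (decorin), Bgn (biglycan), Aspn (asporin), Fmod (fibromodulin), Lum (lumican), Prelp, Kera (keratocan), Omd (osteomodulin), Ogn (osteoglycin, also called mimecan) and Podn (podocan), taken by name as members of the family. All 10 genes had counts in both libraries. The cells were muscle stem cells (MuSCs) sorted from the plantaris muscle of 26-week-old Pax7rtTA; TRE-H2B-GFP mice. In these mice the Pax7 promoter drives a doxycycline-dependent activator, which switches on a nuclear GFP in MuSCs, and mice of both groups drank doxycycline at 2.0 mg/ml before surgery. One group had sham surgery and the other had synergist ablation, in which the plantaris is left to carry the load of its partner muscles (mechanical overload, MOV), with the muscle taken after 5 days. There was 1 library per condition, and the sources disagree on how many mice each library pools. No difference between sham and MOV therefore has a replicate check, no test was made, and every interval below covers counting error only.

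SLRPs are small secreted proteins built from leucine-rich repeats, most of which carry glycosaminoglycan chains. They bind collagen fibrils and set fibril width and spacing, and decorin and biglycan also bind growth factors such as TGF-β. In muscle, they are known from fibroblasts of the connective tissue and from tendon, where decorin and fibromodulin are abundant. By sequence, Dcn, Bgn and Aspn form class I, Fmod, Lum, Prelp, Kera and Omd class II, Ogn belongs to class III, and Podn to class V.

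Most of the genes lie in clusters in the mouse genome (GRCm38, the build of the matrices). On chromosome 10, Dcn (chr10:97479609-97518143), Lum (chr10:97565128-97572703) and Kera (chr10:97606879-97613692) follow each other on the plus strand with gaps of 47.0 and 34.2 kb. On chromosome 13, Aspn (chr13:49544443-49567565), Omd (chr13:49582462-49592822) and Ogn (chr13:49608046-49624501) follow with gaps of 14.9 and 15.2 kb, with Ecm2, a related gene, upstream. All 4 sit inside Cenpp, a centromere gene transcribed from the other strand. Fmod (chr1:134037254-134048277, plus strand) and Prelp (chr1:133910304-133921414, minus strand) are 116 kb apart, and Bgn (chrX:73483602-73495933) and Podn (chr4:108014791-108096445) stand alone.

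Promoters of 3 members are shown as examples, namely Fmod, which was high in tenocyte-like cells, Aspn, which was highest in Lrrc15+ cells of MOV, and Ogn, a neighbour of Aspn that was highest in tenocyte-like cells. They are printed from the RefSeq table of the same build (GRCm38.p6), as the 250 bases before the annotated start, 5′ to 3′ on the gene's strand. The Fmod promoter is chr1:134037004-134037253 (+), that of Aspn chr13:49544193-49544442 (+) and that of Ogn chr13:49607765-49608014 (+). Capitals mark exact matches, on either strand, to TATAAA (the TATA box), CAGATG (an E-box) or GGAATG (a TEAD motif). In Ogn, matches to TATAAA on both strands overlap in 1 run.
Fmod: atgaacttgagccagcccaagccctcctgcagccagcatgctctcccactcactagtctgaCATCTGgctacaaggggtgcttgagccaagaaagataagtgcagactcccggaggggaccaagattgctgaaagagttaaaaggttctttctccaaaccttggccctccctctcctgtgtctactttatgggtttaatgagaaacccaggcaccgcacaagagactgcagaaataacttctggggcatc
Aspn: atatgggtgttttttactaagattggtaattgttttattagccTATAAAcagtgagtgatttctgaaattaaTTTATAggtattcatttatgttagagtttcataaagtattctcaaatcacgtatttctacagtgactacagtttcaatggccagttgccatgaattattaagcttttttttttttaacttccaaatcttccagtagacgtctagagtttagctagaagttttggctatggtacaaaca
Ogn: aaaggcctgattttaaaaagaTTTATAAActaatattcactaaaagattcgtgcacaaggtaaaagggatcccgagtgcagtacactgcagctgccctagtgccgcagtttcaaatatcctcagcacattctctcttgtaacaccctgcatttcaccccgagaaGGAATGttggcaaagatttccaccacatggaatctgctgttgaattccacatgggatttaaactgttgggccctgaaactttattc
The Fmod window held CAGATG on the minus strand at -189 from the start, and the Aspn window held TATAAA at -207 (plus) and -178 (minus). The Ogn window held TATAAA at -227 (plus) and -229 (minus) and GGAATG at -86 (plus). Among the other members with an entry, 1 of the 2 Podn starts held CAGATG at -82, and Bgn, Prelp, Omd and Kera held none of these letters. Of 32851 promoters of this length, 12.4% held TATAAA, 14.4% CAGATG and 12.6% GGAATG, so a match is a description and not a site. The table matched 8 of 10 members, and Dcn and Lum are named only.

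The sham library held 1100 barcodes with 7302661 UMIs and the MOV library 3854 barcodes with 88498487 UMIs. Medians were 4116.5 and 16836 UMIs per barcode, and 44 barcode sequences occurred in both. After removal of barcodes with a mitochondrial share of 10% or more, 738 sham and 3060 MOV cells were left, and they were grouped by summed UMIs of marker genes that hold no member. MuSCs numbered 121 in sham and 1702 in MOV, and 455 sham barcodes against 46 in MOV carried the transcripts of mature fibres. Cells with UMIs of Pdgfra, the receptor that marks fibro-adipogenic cells, numbered 24 and 364. Of these, 1 in sham and 122 in MOV also had Lrrc15, a membrane protein of matrix-producing fibroblasts, and a further 138 MOV cells had Lrrc15 with little or no Pdgfra. Tenocyte-like cells, which carried Tnmd, Scx or Mkx, numbered 12 and 50. Barcodes that met the marker cuts of more than 1 class, 70 and 219, were left out.

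The labels call every cell a muscle stem cell from a VCAM+, CD31-, CD45-, SCA1- sort, but the matrices held these other cells too. Pdgfra+ cells had Ly6a, which encodes SCA1, at 1456 CPM (UMIs per 1000000 UMIs of the group) in sham and 1543 in MOV, against 3.13 and 36.6 in MuSCs. Of 10 fibro-adipogenic markers, Ly6a among them, 10 in sham and 9 in MOV were higher in the Pdgfra+ cells than in MuSCs, and all 6 tenocyte markers were higher in the tenocyte-like cells than in either class in both libraries. All 5 markers of Lrrc15+ fibroblasts were higher in both Lrrc15+ groups of MOV than in the other Pdgfra+ cells. Pax7 stood at 119 and 67.5 CPM in MuSCs. At most 24 sham cells stood behind each value for Pdgfra+ or tenocyte-like cells in that library, so 1 cell could carry much of a sum.

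SLRP transcripts were most abundant in tenocyte-like cells, where the 10 genes together took 5.38% of all UMIs in sham and 3.39% in MOV. In Pdgfra+ cells they took 2.61% and 1.05%, and in the Lrrc15+ cells low in Pdgfra 0.981%. MuSCs stood far lower, at 0.0694% and 0.0715%, and fibre droplets at 0.000575% and 0.0269%. The leading member was Dcn or Bgn, depending on the class and, in Pdgfra+ cells, on the library. Dcn led in tenocyte-like cells of both libraries, with 54.5% and 52.9% of the summed SLRP UMIs. In Pdgfra+ cells Dcn led in sham with 78.0%, whereas Bgn led in MOV with 35.7%. In MuSCs Bgn led in both, with 39.9% and 67.4%. The assay counts 1 tag per transcript at its 3′ end, so CPM were not divided by gene length when members were set side by side, and such comparisons assume that the tag of each gene is captured equally well.

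**Figure D1:**
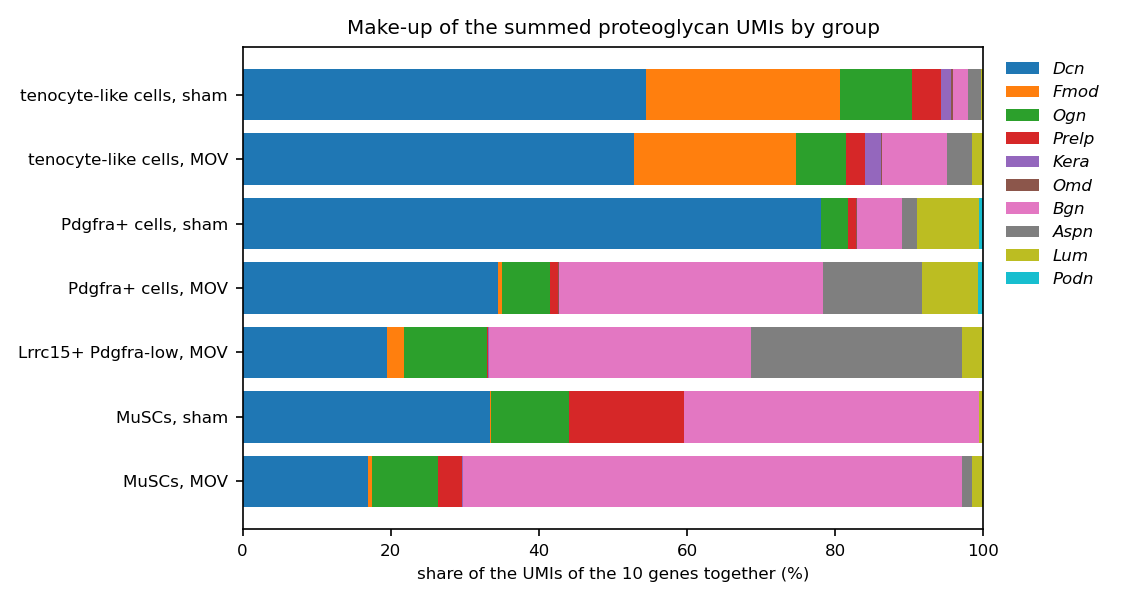
Share of the summed UMIs of the 10 SLRP genes that each member took (percent, horizontal axis) in each class of cells and library (vertical axis), as stacked bars. Dcn took 54.5% and 52.9% in tenocyte-like cells of sham and MOV, and Bgn took 39.9% and 67.4% in MuSCs.

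**Figure D2:**
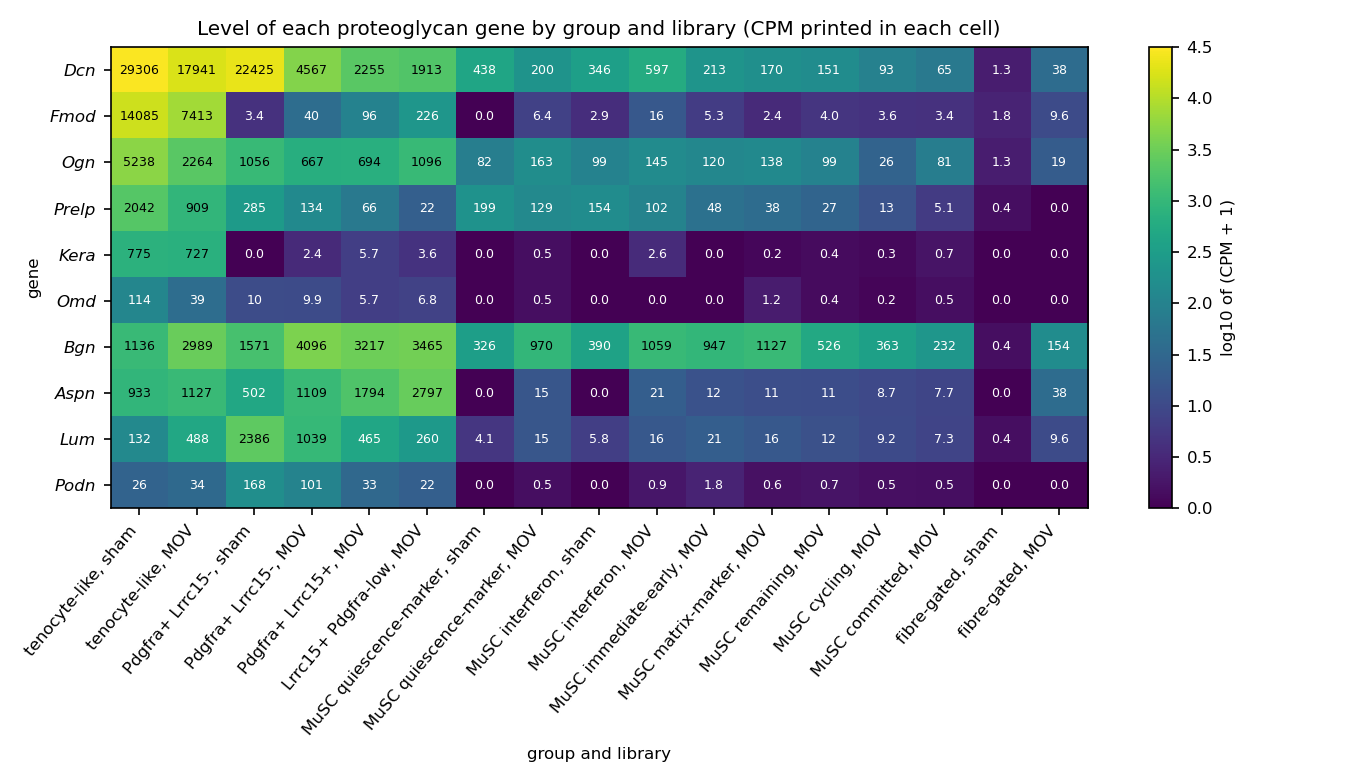
Level of each SLRP gene (rows) in each class of cells and library (columns), as color on a log scale of CPM. Among the classes drawn, tenocyte-like cells held the highest Dcn, Fmod, Prelp, Kera, Omd and Ogn, while Aspn was highest in the Lrrc15+ cells low in Pdgfra, and Lum and Podn in Pdgfra+ Lrrc15- cells of sham.

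The first comparison asked which SLRP genes separate the fibroblasts from MuSCs. Over both libraries, all 10 members were at least 2-fold higher in Pdgfra+ cells than in MuSCs, as were 19.1% of all genes with at least 20 UMIs, and 0 members were 2-fold lower, as were 16.3% of genes. The median log2 ratio of the members was 4.30, beside -0.10 over all genes tested. In sham alone 7 members had enough UMIs to be counted, and 7 were higher (17.8% of all genes) and 0 lower (20.5%). A group at 0 UMIs enters such ratios as 3 counts, which gives a bound.

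Among class I members, Dcn stood at 20385 CPM in sham and 3606 in MOV Pdgfra+ cells, and at 232 and 121 in MuSCs. The log2 ratio over both libraries was 5.01 (95% interval 4.97 to 5.04), and every Pdgfra+ cell had a Dcn UMI in either library. Bgn, the closest relative of decorin, was the least distant of the 3, at 1600 and 3731 CPM against 277 and 481, a log2 ratio of 2.95 (2.93 to 2.97). Aspn, which carries a stretch of aspartate residues near its N-terminus, stood at 518 and 1394 CPM against 0 UMIs and 9.56 CPM, a log2 ratio of 7.21 (7.08 to 7.34). No Aspn UMI was seen in the 121 sham MuSCs, which allows up to 1.88 CPM at 3 counts. A single cell held 51.5% of the sham Aspn UMIs of the Pdgfra+ cells.

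Among class II members the log2 ratios ran from 2.11 to 6.33. Lum, which shapes corneal and skin fibrils, stood at 2198 and 800 CPM in Pdgfra+ cells and at 3.76 and 10.5 in MuSCs, a log2 ratio of 6.33 (6.21 to 6.45). Prelp, a heparin-binding member of basement membranes, had the smallest difference of the 10, with 294 and 106 CPM against 107 and 23.1 and a log2 ratio of 2.11 (2.00 to 2.21). Fmod was at 3.07 CPM, a single UMI, in sham Pdgfra+ cells and at 63.1 CPM in MOV, against 0.627 and 3.94 in MuSCs, and its ratio of 4.01 (3.79 to 4.23) therefore came from the MOV library. Kera and Omd were low in both classes: Kera had 0 UMIs in sham and 3.79 CPM in MOV Pdgfra+ cells, 31.5% of it in 1 cell, and Omd 9.20 and 8.15 CPM. Their log2 ratios were 3.24 (2.50 to 4.03) and 4.59 (3.89 to 5.38). With barcodes of mixed markers kept, the call for Kera was lost. Ogn of class III stood at 963 and 679 CPM against 73.3 and 64.1, a log2 ratio of 3.41 (3.36 to 3.47). Podn of class V was at 150 and 72.9 CPM against 0 UMIs and 0.568 CPM, with a ratio of 7.08 (6.57 to 7.64). Aspn, Podn and Lum thus differed between these classes by larger folds than Dcn, although Dcn was the more abundant transcript.

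Tenocyte-like cells were then compared with Pdgfra+ cells. Of the 10 members, 6 were at least 2-fold higher in tenocyte-like cells, beside 7.82% of all genes, and 1 (Podn) was lower, beside 16.5%. The median of the members was 2.12, and that of all genes -0.18. Kera and Fmod had the largest differences. Kera, the keratan sulphate proteoglycan named for the cornea, stood at 775 and 727 CPM in tenocyte-like cells, a log2 ratio over both libraries of 7.63 (7.22 to 8.06). Fmod, which organizes tendon collagen, stood at 14085 and 7413 CPM, a ratio of 7.07 (6.97 to 7.17). In sham, the top cell for Kera held 46.6% of its UMIs and the top cell for Fmod 26.7%. Both ratios remained above 7 with the top cell of each group left out, at 8.06 and 7.06. In MOV, the mixed barcodes that were left out held 43.6% of the Kera and 42.8% of the Fmod UMIs of all kept barcodes. Tenocyte-like cells held 40.2% and 36.3%.

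Prelp stood at 2042 and 909 CPM in tenocyte-like cells, a log2 ratio of 3.27 (3.15 to 3.39) over Pdgfra+ cells. Omd, the member named for bone, was at 114 and 39.5 CPM from 13 and 29 UMIs, with a ratio of 2.60 (2.06 to 3.12), while sham cells that met no marker cut had more Omd, at 229 CPM. Dcn was at 29306 and 17941 CPM and Ogn at 5238 and 2264, with ratios of 2.29 (2.26 to 2.31) and 1.96 (1.89 to 2.02). For Dcn the libraries differed. It was 2.31 (2.29 to 2.34) log2 units higher in tenocyte-like cells in MOV but 0.52 (0.46 to 0.58) higher in sham, where the Pdgfra+ cells themselves had the higher Dcn. In sham alone 4 of 9 members passed 2-fold upward (Fmod, Prelp, Kera and Ogn), beside 9.58% of all genes, and 2 (Lum and Podn) downward, beside 21.3%.

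The remaining members were not enriched in tenocyte-like cells. Bgn was at 1136 and 2989 CPM, a log2 ratio of -0.43 (-0.49 to -0.37). Aspn was at 933 and 1127 CPM, which is higher than in Pdgfra+ cells of sham and lower than in those of MOV, and 1 cell held 42.5% of the sham UMIs. Lum was at 132 and 488 CPM, the first from 15 UMIs, with a ratio of -0.92 (-1.07 to -0.77), and the sham library alone gave -4.06 (-4.90 to -3.33). Podn was at 26.4 and 34.0 CPM from 3 and 25 UMIs, with a ratio of -1.18 (-1.77 to -0.64), a call that was lost under TMM or DESeq2 scaling of the sums. The neighbours on chromosome 10 thus differed in this comparison, from 7.63 for Kera and 2.29 for Dcn to -0.92, under the 2-fold limit, for Lum.

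Pdgfra+ Lrrc15+ cells numbered 1 in sham, so those of MOV were set against the Lrrc15- Pdgfra+ cells of that library. Of the 10 members, 2 (Fmod and Kera) were at least 2-fold higher in Pdgfra+ Lrrc15+ cells, beside 2.45% of all genes, and 4 (Dcn, Lum, Prelp and Podn) were lower, beside 5.01%. The median was -0.56, with -0.0001 for all genes. Podn had the lowest ratio, at 32.8 against 101 CPM, a log2 ratio of -1.63 (-1.86 to -1.40). Lum was at 465 against 1039 CPM, a ratio of -1.16 (-1.22 to -1.10). Dcn (2255 against 4567 CPM) and Prelp (65.5 against 134) lay close to the 2-fold limit, at -1.02 (-1.05 to -0.99) and -1.03 (-1.20 to -0.86), and both were lost as calls when the marker cuts were halved or doubled.

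Fmod was at 96.0 CPM in Lrrc15+ cells and at 39.8 in the Lrrc15- cells, a log2 ratio of 1.27 (1.07 to 1.47). Kera rested on 34 and 20 UMIs, of which 1 cell held 50% in the Lrrc15+ group, and its ratio was 1.26 (0.42 to 2.13). Both calls were lost when barcodes of mixed markers were kept. Aspn stood at 1794 against 1109 CPM, a ratio of 0.69 (0.65 to 0.73), under the limit. Ogn barely differed, with 694 and 667 CPM and a ratio of 0.06 (-0.0014 to 0.12), while Bgn was at 3217 and 4096 CPM with -0.35 (-0.37 to -0.32). Of the chromosome 13 neighbours, Aspn was therefore higher, Ogn level and Omd lower (5.74 against 9.85 CPM, -0.78, -1.40 to -0.19).

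The 138 Lrrc15+ cells low in Pdgfra differed from the Lrrc15- cells in the same directions, with larger ratios for Aspn, Fmod, Prelp, Podn, Lum and Dcn. Aspn reached 2797 CPM, the highest of any class, which was 1.34 (1.30 to 1.37) log2 units above the Pdgfra+ Lrrc15- cells. Fmod was at 226 CPM, 2.50 (2.33 to 2.69) above them. Prelp was at 21.8 CPM, -2.62 (-2.91 to -2.33) log2 units from them, and Podn at 21.8 CPM, -2.21 (-2.52 to -1.93). Lum was at 260 CPM (log2 ratio -2.0, -2.08 to -1.91) and Dcn at 1913 CPM (-1.26, -1.29 to -1.22). Ogn, level in the Pdgfra+ Lrrc15+ cells, was at 1096 CPM here, 0.72 (0.66 to 0.77) above the Lrrc15- cells, while Bgn was at 3465 CPM (-0.24, -0.27 to -0.21). The tenocyte genes did not all move with Fmod here. Tnmd was at 34.7 CPM and Scx at 163 in these cells, against 5.29 and 21.9 in the Lrrc15- cells, and Mkx at 2.41 against 0.841. Of the other tenocyte markers, Col11a1 (174 against 25.4 CPM) and Fibin (165 against 71.0) were higher. Thbs4 was lower (1582 against 3249 CPM) and Comp near level (33.7 against 35.3). Cilp2 (0.200 against 0.841) and Wif1 (0.401 against 0) were hardly seen. The part of these genes in the Fmod difference was not tested. This group has the Lrrc15- cells in common with the comparison above.

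**Figure D3:**
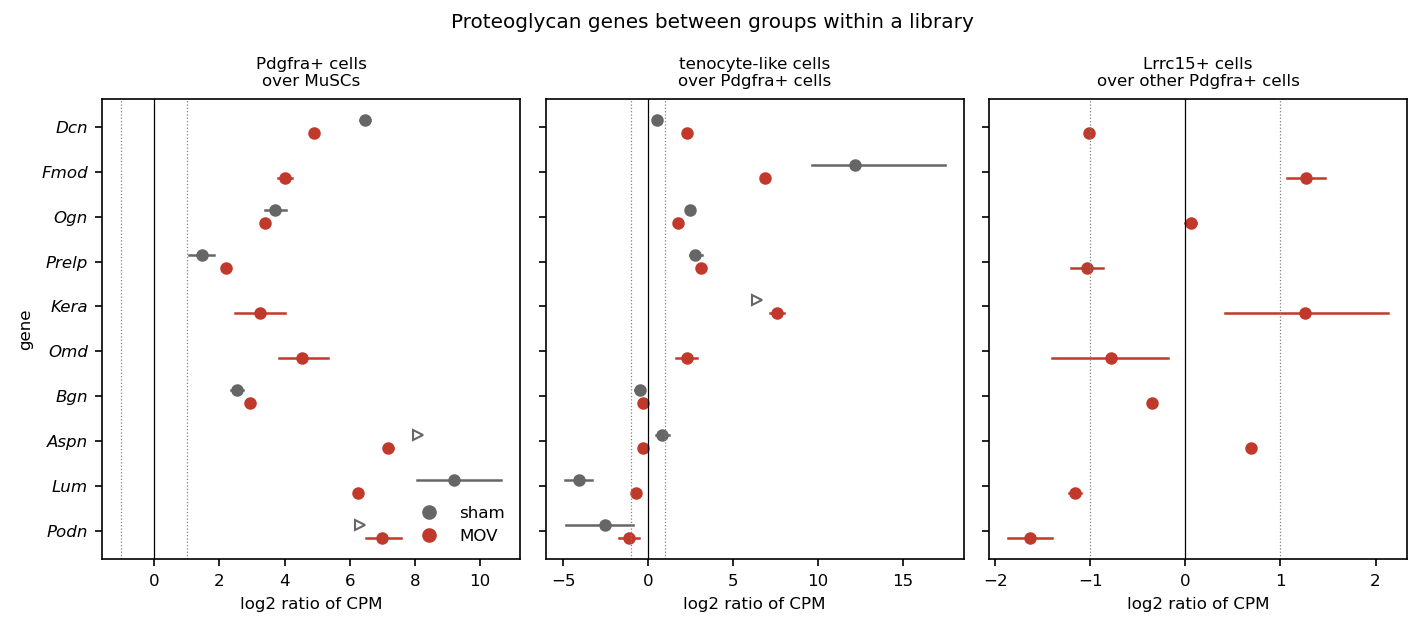
Log2 ratio of CPM for each SLRP gene in 3 comparisons: Pdgfra+ cells over MuSCs, tenocyte-like over Pdgfra+ cells, and Lrrc15+ over other Pdgfra+ cells, by library. Points carry 95% intervals for counting error, open triangles are lower bounds against a group at 0 UMIs, and dotted lines mark 2-fold. In the first panel the members lie above the upper dotted line, and in the second Kera and Fmod lie highest.

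In MuSCs the highest SLRP levels were those of Bgn, Dcn, Ogn and Prelp, although in MOV the share of cells with Dcn, Ogn or Prelp was within counting error of that in immune-like cells. Bgn was at 277 CPM (252 to 304) in sham and 481 (476 to 487) in MOV, and Dcn at 232 and 121. Of the sham Dcn UMIs in MuSCs, 34.3% came from 1 cell, and the median cell had none. Ogn stood at 73.3 and 64.1 CPM and Prelp at 107 and 23.1. The other 6 members were at or under 10.5 CPM in both libraries, with Aspn, Kera, Omd and Podn at 0 UMIs in sham.

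To compare detection across depths, each cell was thinned to 2000 UMIs. Bgn was then found in 34.7% of sham MuSCs (exact 95% interval 26.3 to 43.9) and in 61.6% of MOV MuSCs (59.2 to 63.9), beside 71.1% and 98.1% without thinning. In fibre droplets of sham it was found in 0 of 311, which allows up to 1.18%. In immune-like cells of MOV, taken as a reference, it was found in 29.7% of 64 (18.9 to 42.4). Whether immune-like cells express it themselves was not tested. Fibre droplets of MOV with enough UMIs numbered 9, of which 4 had Bgn (44.4%, 13.7 to 78.8). Median depths before thinning were 8153 and 24033.5 UMIs for MuSCs, 3152 for the sham fibre droplets and 7548 for the MOV immune-like cells. Bgn in MuSCs was thus above the fibre droplets in sham and above the immune-like cells in MOV, but within the interval of the 9 MOV fibre droplets. Prelp was found in 26.4% of sham MuSCs (18.8 to 35.2), against 0.322% of the fibre droplets. In MOV it was found in 7.92% (6.68 to 9.32) against 6.25% of the immune-like cells (1.73 to 15.2), which is not above background. Dcn and Ogn were found in 13.2% and 16.5% of sham MuSCs against 0 of 311 fibre droplets, and in 19.9% and 12.9% of MOV MuSCs against 18.8% (10.1 to 30.5) and 9.38% (3.52 to 19.3) of immune-like cells, which is not beyond counting error. Aspn, Fmod, Lum and Kera in MOV MuSCs, at 2.42%, 0.946%, 2.84% and 0.177%, were under the immune-like shares of 14.1%, 4.69%, 4.69% and 3.12%. Detection of these 4 genes in MOV MuSCs is therefore not counted here as expression. A single immune-like cell held 68.7% of the Dcn UMIs of that class, so the class is not free of stromal transcripts and is an imperfect reference.

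The MuSCs were next split into states by marker genes, and each state of MOV was compared with all other MOV MuSCs, so that the comparisons have most cells in common. Of 9 members with enough UMIs, those past 2-fold upward numbered 3 in quiescence-marker cells (background 8.42%), 3 in immediate-early cells (12.5%), 7 in interferon cells (9.01%), 2 in matrix-marker cells (7.15%), 0 in cycling cells (6.21%) and 1 in committed cells (7.12%). Downward they numbered 0 (15.5%), 0 (7.0%), 0 (10.3%), 1 (11.3%), 3 (7.47%) and 3 (11.7%) in the same order. Among them are calls of Aspn, Fmod, Lum and Kera, whose detection in MOV MuSCs was not counted as expression above. In interferon cells these were Aspn, Fmod and Kera. The counts also include calls of Dcn, Ogn and Prelp, whose shares in all MOV MuSCs were within counting error of those in immune-like cells. Several of the calls rest on 1 cell. Kera had 22 UMIs over all MOV MuSCs, and its calls in the interferon, matrix-marker, cycling and committed cells did not survive removal of its top cells. Fmod in interferon cells (17 of 19 UMIs in 1 cell) turned from 2.16 to -0.93 without the top cells, and the call of Podn in immediate-early cells was a single UMI. The calls that held under every alternative run were Prelp (upward in quiescence-marker and interferon, downward in cycling and committed cells), Dcn in interferon cells, Bgn in matrix-marker cells and Ogn downward in cycling cells.

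Bgn was highest in matrix-marker MuSCs, which were chosen by Islr, Gpc3 and Lox, at 1127 CPM against 418 in the other MuSCs, a log2 ratio of 1.43 (1.39 to 1.47). It was at 1059 CPM in interferon cells (1.18, 1.09 to 1.26), at 970 in quiescence-marker cells (1.07, 1.00 to 1.14) and at 947 in immediate-early cells (0.99, 0.86 to 1.11). These 4 states lie close together. Cycling cells were at 363 CPM (-0.77, -0.80 to -0.73) and committed cells, with Myog, Mymk or Mymx, lowest at 232 (-1.17, -1.24 to -1.11). In sham, Bgn was at 326 CPM in quiescence-marker cells and at 390 in interferon cells, both under the same states of MOV. Thinned to 2000 UMIs, Bgn was found in 84.0% of matrix-marker cells (78.8 to 88.4) and in 38.4% of committed cells (30.9 to 46.3) of MOV.

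Prelp separated the states most. It was at 129 CPM in quiescence-marker MuSCs of MOV against 18.9 in the others, a log2 ratio of 2.77 (2.57 to 2.97), and at 102 in interferon cells (2.26, 1.97 to 2.53). Immediate-early and matrix-marker cells had 47.6 and 38.4 CPM, cycling cells 13.3 (-1.37, -1.54 to -1.19) and committed cells 5.09 (-2.36, -2.85 to -1.91). The call in immediate-early cells, at 1.06 (0.45 to 1.61), was lost under TMM or DESeq2 scaling and without the top cells. In sham, quiescence-marker cells had 199 CPM and the other MuSCs 66.8, a ratio of 1.57 (1.12 to 2.03). Thinned to 2000 UMIs, Prelp was found in 21.7% of quiescence-marker (15.6 to 28.9) and 22.1% of interferon cells (13.4 to 33.0) of MOV, against 1.22% of committed cells. In sham the shares were 26.8% of quiescence-marker (15.8 to 40.3) and 37.9% of interferon cells (20.7 to 57.7), whose intervals overlap.

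Ogn was at 163 CPM in quiescence-marker, 145 in interferon, 138 in matrix-marker and 120 in immediate-early cells, with log2 ratios of 1.43 (1.27 to 1.60), 1.21 (0.98 to 1.44), 1.28 (1.16 to 1.41) and 0.92 (0.55 to 1.26). Committed cells kept 80.9 CPM (0.40, 0.28 to 0.53), and cycling cells were lowest at 25.8 (-2.07, -2.19 to -1.96). Ogn and Bgn therefore differed at the low end, since Bgn was lowest in committed and Ogn in cycling cells. In sham, Ogn was at 81.9 CPM in quiescence-marker cells and 69.6 in the other MuSCs, a ratio of 0.24 (-0.35 to 0.81) that does not exclude 0.

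Dcn was highest in interferon cells of MOV, at 597 CPM and a log2 ratio of 2.44 (2.32 to 2.55). There 1 cell held 29.3% of its UMIs, and the ratio without the top cells was 1.99. Committed cells were lowest at 64.7 CPM (-1.01, -1.14 to -0.88), a call lost with TMM or DESeq2 scaling. Summed check genes of the other classes also differed between these states. The 10 fibro-adipogenic check genes summed to 410 CPM in interferon, 372 in quiescence-marker and 305 in immediate-early MuSCs of MOV. They summed to 239 in matrix-marker, 156 in cycling and 111 in committed MuSCs. The 6 tenocyte check genes summed to 175, 61.8, 91.7, 67.4, 34.4 and 46.5 in the same order. Of the 9711 UMIs of the fibro-adipogenic genes in MOV MuSCs, Lama2 held 2826, Ly6a 1996, Hsd11b1 1571, Mfap5 1463 and Cd34 1062. Hsd11b1 was at 28.8 CPM in those MuSCs and 24.8 in Pdgfra+ cells, so the sum is not of fibroblast transcripts alone. Mfap5 was at 52.8, 35.3, 19.4, 23.5, 27.8 and 22.5 CPM in those states, in the same order. Pdgfra itself was at or under 1.47 CPM and Tnmd at or under 7.79 in every MuSC state. Their part in the SLRP differences between states was not tested. Of MOV MuSCs, 16.0% lay within 1.5-fold of the quiescence-marker cut and 16.8% of the matrix-marker cut.

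**Figure D4:**
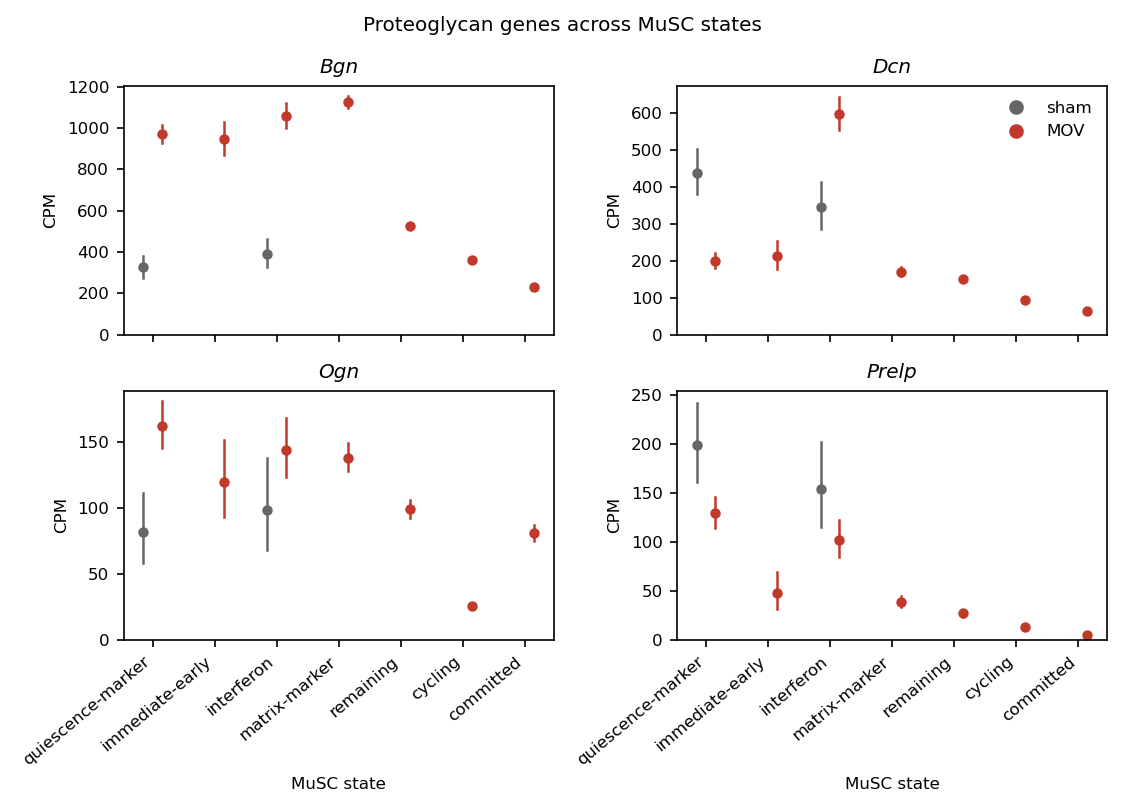
CPM of Bgn, Dcn, Ogn and Prelp in each MuSC state with at least 20 cells, by library, with exact 95% Poisson intervals. Prelp is highest in quiescence-marker cells (199 CPM in sham and 129 in MOV), Bgn in matrix-marker cells of MOV (1127) and Ogn is lowest in cycling cells (25.8).

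MOV was compared with sham within each class, as 1 library against 1. In MuSCs, 3 of 9 members counted were at least 2-fold higher in MOV (12.3% of all genes) and 1 lower (9.40%). In quiescence-marker MuSCs these numbers were 3 of 6 (17%) and 1 (5.88%), in Pdgfra+ cells 3 of 10 (12.3%) and 4 (15.5%), and in tenocyte-like cells 2 of 10 (15.0%) and 3 (12.2%). The members higher in MuSCs were Aspn, Fmod and Lum, whose detection in MOV MuSCs was not counted as expression above. Aspn and Lum were also among those higher in quiescence-marker MuSCs, beside Bgn. With these genes included, counts of members in either direction stood near or above those of all genes, with no single direction for the family.

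Bgn was higher in MOV in all 3 classes. The log2 ratio was 0.80 (0.66 to 0.94) in MuSCs, 1.22 (1.10 to 1.35) in Pdgfra+ cells and 1.40 (1.14 to 1.66) in tenocyte-like cells. In quiescence-marker MuSCs, which were present in both libraries in number, it was 1.57 (1.34 to 1.82), from 326 to 970 CPM. A single sham cell held 39.1% of the Bgn UMIs of the Pdgfra+ cells, and without the top cells that ratio was 1.65. With the mitochondrial limit at 20%, which adds 1 sham and 10 MOV cells, it was 0.94, under the 2-fold limit.

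Prelp was lower in MOV in all 3 classes, by -2.22 (-2.45 to -1.98) in MuSCs, -1.48 (-1.78 to -1.17) in Pdgfra+ cells and -1.17 (-1.39 to -0.95) in tenocyte-like cells. The makeup of the MuSCs moved with this, since quiescence-marker cells were 56 of 121 in sham and 163 of 1702 in MOV. Within quiescence-marker cells Prelp went from 199 to 129 CPM, a ratio of -0.62 (-0.96 to -0.27), under the 2-fold limit.

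Dcn was lower in MOV as well, most in Pdgfra+ cells, where it went from 20385 to 3606 CPM, a log2 ratio of -2.50 (-2.54 to -2.46). Among Lrrc15- cells alone it went from 22425 to 4567 CPM. The middle Pdgfra+ cell had 23343 CPM in sham and 3444 in MOV, and the 10th to 90th percentiles ran from 10094 to 37226 and from 1133 to 8745. In tenocyte-like cells the ratio was -0.71 (-0.76 to -0.65). In MuSCs it was -0.94 (-1.09 to -0.79), but -0.39 without the top cell of each library, and it passed 2-fold under TMM or DESeq2 scaling. The call in quiescence-marker MuSCs (-1.13, -1.37 to -0.89) was that of 1 sham cell with 59.3% of the UMIs, and without the top cells the levels were 182 and 185 CPM.

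The other members differed between classes in direction. Lum was higher in MOV in MuSCs (1.49, 0.36 to 2.94, from 6 sham UMIs) and in tenocyte-like cells (1.89, 1.15 to 2.74) and lower in Pdgfra+ cells (-1.46, -1.57 to -1.35). Fmod was higher in Pdgfra+ cells (4.36, 1.88 to 9.67) and MuSCs (2.65, 0.16 to 7.96), each from 1 sham UMI, and lower in tenocyte-like cells (-0.93, -1.01 to -0.84). Aspn was higher in Pdgfra+ cells (1.43, 1.21 to 1.65, and 2.18 without the top cells), and in MuSCs at least 5.09-fold higher, with the 0 sham UMIs taken as 3 counts over the group. With mixed barcodes kept, Aspn and Fmod in MuSCs turned to -1.22 and -2.79. All 3 genes were found in a smaller share of MOV MuSCs than of immune-like cells. In MOV MuSCs, Mfap5 and Postn of the fibroblasts moved with Aspn, Lum and Fmod, at 26.8 and 73.1 CPM against 0 and 5.01 in sham. Ly6a was also higher, at 36.6 against 3.13 CPM, as were Pi16, Dpep1 and Smoc2. The 10 fibro-adipogenic genes together went the other way, at 178 CPM in MOV against 265 in sham. Hsd11b1 (28.8 against 108), Cd34 (19.5 against 62.7), Lama2 (51.8 against 67.1), Entpd2 and Clec3b were lower. The part of these genes in the differences was not tested. In tenocyte-like cells Aspn was near level, with 933 and 1127 CPM and a ratio of 0.27 (-0.02 to 0.58), or 0.58 without the top cells.

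Ogn was lower in tenocyte-like cells of MOV, with a log2 ratio of -1.21 (-1.35 to -1.07), which became -0.80 without the top cells since 1 sham cell held 37.8% of its UMIs. In Pdgfra+ cells it was -0.50 (-0.67 to -0.34) and in MuSCs -0.19 (-0.46 to 0.08). Omd in tenocyte-like cells was -1.54 (-2.53 to -0.47), from 13 and 29 UMIs, Omd in Pdgfra+ cells -0.18 (-1.76 to 2.12) from 3 sham UMIs, or 1.27 without the top cells, and Podn in Pdgfra+ cells -1.04 (-1.46 to -0.60), a call lost under TMM or DESeq2 scaling. Kera did not differ beyond counting error in tenocyte-like cells, at 775 and 727 CPM (-0.09, -0.42 to 0.25). In other classes its counts were too low to compare.

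**Figure D5:**
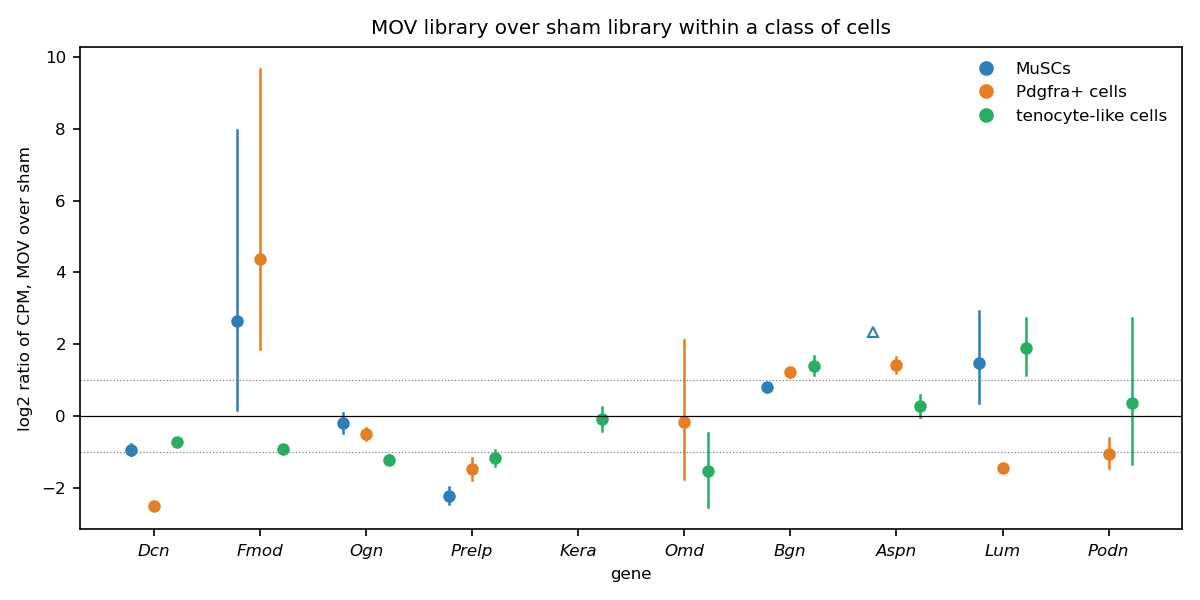
Log2 ratio of MOV over sham CPM for each SLRP gene in MuSCs, Pdgfra+ cells and tenocyte-like cells, with 95% intervals for counting error; open triangles are lower bounds against 0 UMIs in sham. Bgn lies above 0 (0.80, 1.22 and 1.40) and Prelp below 0 (-2.22, -1.48 and -1.17) in the 3 classes, while Lum and Fmod change side between classes.

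Within single cells thinned to 2000 UMIs, the tenocyte-like cells had a median of 6 of the 10 members in both libraries, with 4 to 8 in single cells. Pdgfra+ Lrrc15- cells had a median of 4 in sham and 5 in MOV, and MuSCs of 1 in both. Dcn and Bgn were found together in 73.9% of sham and 98.8% of MOV Pdgfra+ Lrrc15- cells. Dcn and Lum were found together in 82.6% and 71.9% of those cells but in 18.2% and 32.6% of tenocyte-like cells. Fmod with Kera was the pair of the tenocyte-like cells, with 54.5% and 51.2%, and the pair was found in 0 of 23 and 0 of 242 Pdgfra+ Lrrc15- cells. Shares of this kind rise with the level of both genes.

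Likeness of pattern was described over 19 group and library points of at least 20 cells, as Pearson's r of log2(CPM + 1) over 12564 genes. The points share their libraries and, in the MuSC states, a lineage, so r is a description only. Tenocyte-like cells entered from MOV alone, since sham had 12. Fmod and Kera stood at 7413 and 727 CPM there, and at 226 and 33.7 in their next highest points of MOV. The Kera value of 33.7 was that of the immune-like cells, where 1 cell held 96.7% of its UMIs. Of the Fmod UMIs of that class, 89.9% lay in 1 cell. The r values of Fmod and Kera therefore lean on the tenocyte-like point, and their immune-like values rest mostly on 1 cell per gene. Among the members, Fmod and Kera (0.90), Dcn and Lum (0.90), Lum and Podn (0.89), Dcn and Ogn (0.89) and Omd and Podn (0.89) were most alike, and Aspn and Prelp (0.28), Fmod and Prelp (0.32) and Bgn and Kera (0.33) least. The chromosome 13 neighbours reached 0.84 (Aspn and Omd), 0.75 (Omd and Ogn) and 0.71 (Aspn and Ogn), while on chromosome 10 Kera reached 0.55 with Dcn and 0.49 with Lum. Of other genes, Dcn was most like Has1 (0.94), Mmp2 (0.93) and Svep1 (0.93), and Ogn like Mmp2 (0.97), Olfml3 (0.94) and Timp2 (0.93). Bgn was most like Rcn3, Col3a1 and P4ha1 (each 0.97), and Aspn like Mfap5 (0.98), Ebf1 (0.96) and Col6a3 (0.96). Fmod followed Tnmd (0.92), a gene of the tenocyte cut, then Clec11a (0.91) and Fam167a (0.90), and Kera followed Col11a2 (0.95), Mkx (0.94), also of that cut, and Atp6v0a4 (0.94). Lum was nearest to Adgrd1 (0.96), Isl1 (0.95) and Lrrn4cl (0.95), Podn to Slit3 (0.98), Adam33 (0.97) and Meis2 (0.96), and Omd to Eya2 (0.98), Nox4 (0.94) and Itga11 (0.93). Prelp was nearest to Colec12 (0.93), Gpx3 (0.93), a gene of the quiescence-marker cut, and Egfr (0.92).

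Genes that work with SLRPs were followed as lists. Of 22 partners (fibrillar and type VI collagens, TGF-β ligands, receptors and processing enzymes), 20 were at least 2-fold higher in Pdgfra+ cells than in MuSCs (19.1% of all genes) and 1 lower (16.3%), with a median log2 ratio of 3.38. Mmp13 (7.46, 6.64 to 8.42), a collagenase, and Col6a3 (6.27, 6.16 to 6.37) were farthest upward, and Met (-5.23, -5.99 to -4.57), a growth factor receptor that decorin binds, was the one downward. Of 28 counted genes that build or sulphate glycosaminoglycan chains, 19 were higher and 2 (Chst3 and Chst13) lower, with a median of 1.52, and Xylt1, which starts the chains, was at 6.55 (5.60 to 7.70). In tenocyte-like against Pdgfra+ cells, however, 4 of 22 partners were higher and 7 lower (median -0.32), and 0 of 26 chain genes were higher and 6 lower (median -0.25), beside 7.82% and 16.5% of all genes. Col3a1 (-2.43, -2.49 to -2.37) and Col5a1 (-2.41, -2.67 to -2.17) were lower there, although Fmod, Kera and Dcn were higher. In matrix-marker MuSCs of MOV, 11 of 21 partners were higher (7.15% of all genes) and 0 lower (11.3%), with a median of 1.09, and in committed MuSCs 0 were higher (7.12%) and 11 lower (11.7%), with a median of -1.0.

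Among the 7 related genes outside the list, Chad (chondroadherin, a leucine-rich protein without glycosaminoglycan chains) stood out in tenocyte-like cells, at 3697 and 1049 CPM, against 0 UMIs in sham and 0.140 CPM in MOV Pdgfra+ cells. Ecm2, upstream of Aspn, was at 440 and 207 CPM in tenocyte-like cells, 208 and 94.4 in Pdgfra+ cells and 5.01 and 2.44 in MuSCs, a pattern between those of Ogn and Aspn in its ratio of 1.30 (1.08 to 1.51) for tenocyte-like over Pdgfra+ cells. Tsku and Podnl1 were low throughout, with Tsku at 30.7 and 19.1 CPM in Pdgfra+ cells and Podnl1 at 9.42 CPM in the Lrrc15+ cells low in Pdgfra. Optc had 7 and 68 UMIs, and Epyc and Nyx 0 in sham and 3 and 4 in MOV, which is too few to place them.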

How the data were processed

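Single-cell RNA-seq (10x Genomics, 3′ tags) was analysed in 2 libraries of cells sorted from plantaris muscle, 1 per condition. The deposited values were UMI counts per gene and barcode, which the authors made with Cell Ranger 6.0.0 against the mouse mm10 reference. The submitters' notes also name R 4.0.2 and Seurat 4.0.2. No gene or column was normalized before deposit. The members and the gene lists were chosen with earlier results of these data known.

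Barcodes with a mitochondrial share under 10% were kept (738 of 1100 in sham, 3060 of 3854 in MOV). Cells were assigned to classes and MuSC states where the summed UMIs of a marker list passed a CPM cut and a UMI minimum, and barcodes in more than 1 class were left out. UMIs were summed over each group and scaled to CPM (UMIs per 1000000). Ratios of summed counts carry exact conditional 95% intervals, levels exact Poisson and shares exact binomial intervals. All of these cover counting error only. A group at 0 UMIs was set to 3 counts. A gene counted as higher or lower at 2-fold or more with at least 20 UMIs over both groups. No p-value was computed, since cells of 1 library are not replicates. Total depth was 7302661 UMIs in sham and 88498487 in MOV, so that sham values are the less precise.

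Named genes were the 10 members, 7 related genes, the genes of 2 lists (SLRP partners and glycosaminoglycan enzymes) whose interval lay farthest from 0, and for each member the 3 genes of at least 100 UMIs with the highest r. Promoter sequences came from RefSeq for GRCm38.p6. Alternatives were mitochondrial limits of 5% and 20%, mixed barcodes kept, simulated doublets removed (scanpy 1.11.5), marker cuts halved or doubled, edgeR 4.0.16 TMM or DESeq2 1.42.0 size factors, no count filter, means over cells, each library alone, and thinning to 4000 instead of 2000 UMIs. Leaving out the top cell of each member and taking all Lrrc15+ cells together were chosen after seeing the data. The ratio step was tested on simulated data. Python 3.11.15, numpy 2.4.6, scipy 1.17.1, pandas 2.3.3, matplotlib 3.10.9 and R 4.3.3 were used.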

Additional observations from a re-analysis of the deposited data

Results flagged for a closer look

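The log2 MOV over sham ratio of Fmod differed in direction between classes, at 2.65 in MuSCs, 4.36 in Pdgfra+ cells and -0.93 in tenocyte-like cells, with 1 sham UMI behind each of the first pair. Lum differed in direction as well, at 1.49 in MuSCs, -1.46 in Pdgfra+ cells and 1.89 in tenocyte-like cells. The log2 ratio of Aspn in tenocyte-like over Pdgfra+ cells was 0.85 in sham and -0.31 in MOV, where 1 cell held 51.5% of the Aspn UMIs of the sham Pdgfra+ cells. None of these differences was tested, since there was 1 library per condition.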

How the results depend on the processing

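No paired analysis was possible because each condition had 1 library, both labelled replicate 1. Of 66 members past 2-fold over all comparisons, 36 held in all 11 alternatives that were run for every comparison. With sham alone, Fmod, Kera and Omd in Pdgfra+ over MuSCs and Dcn and Omd in tenocyte-like over Pdgfra+ cells were no longer counted, all but Dcn with under 20 UMIs. Cell numbers limit the sham values (12 tenocyte-like and 24 Pdgfra+ cells), and the cause of each change below was not tested. With mixed barcodes kept, members higher in Lrrc15+ cells numbered 0 (2 as reported), those past 2-fold in the MuSC states 25 upward (16) and 20 downward (7), and those lower in MOV 16 (9). Members lower in Lrrc15+ cells numbered 2 with cuts halved and 2 with cuts doubled (4). Members lower in tenocyte-like cells (1) numbered 0 under TMM and 0 under DESeq2 scaling, and 2 under the 20% mitochondrial limit, doubled cuts, means over cells, sham alone or the top cells left out. In the MuSC states, doubled cuts gave 27 upward and 13 downward, halved cuts 3 downward, means over cells 8 upward and the top cells left out 9 upward. Thinning to 4000 UMIs found Bgn in 79.3%, Dcn in 28.8%, Prelp in 13.8% and Ogn in 23.3% of MOV MuSCs. Directions reversed for 16 log2 ratios. With mixed barcodes kept these were Kera in Lrrc15+ cells (-0.21), in matrix-marker cells (3.94) and in committed cells (-2.28), Aspn in interferon cells (-0.37), and MOV over sham in MuSCs for Aspn (-1.22) and Fmod (-2.79). Doubled cuts reversed Fmod in interferon cells (-2.32) and in MOV over sham MuSCs (-0.70), and Kera in matrix-marker (3.31) and committed cells (-0.11). Halved cuts reversed Fmod in interferon cells (-0.19) and Dcn in MOV over sham quiescence-marker cells (0.56). Leaving out the top cells reversed Fmod in interferon (-0.93), Kera in committed (-1.16) and Dcn in quiescence-marker cells (0.028), and removal of simulated doublets Kera in committed cells (-1.49). Of the other recomputed values, 501 stayed the same and 180 moved. The median log2 ratio of all genes was beyond 0.1 in tenocyte-like over Pdgfra+ cells (-0.18), immediate-early (0.24) and committed MuSCs (-0.12), and MOV over sham in quiescence-marker (0.19) and Pdgfra+ cells (-0.18).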

Other observations

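The cells that met no marker cut, 39 in sham and 357 in MOV with medians of 4126 and 1202 UMIs, also carried SLRP transcripts. Dcn stood at 14624 CPM in sham and 4740 in MOV, Fmod at 1465 and 268, Ogn at 947 and 792, and Omd at 229 and 31.1. Bgn was at 234 and 2854 CPM, Aspn at 87.6 and 1186, Lum at 380 and 652, and Prelp at 613 and 155. These cells entered no comparison.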
